A study of Mus musculus with 20 samples.

Results

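The genes described here are 41 interferon-stimulated and antiviral genes of the mouse. They were chosen by name from the type I interferon response, with earlier results of these data known. Each gene was represented by its transcript with the highest total over all libraries, and a gene belonged to the set if that transcript had a normalised count of at least 10 in at least 5 libraries. All 41 listed genes passed that minimum, and they were part of the 19844 genes that were tested, of 38947 genes with a name in the table. The list holds 11 sensors of foreign nucleic acid and their regulators, 2 transcription factors, 12 antiviral effectors, 9 enzymes and substrates of ISG15, ubiquitin and ADP-ribose conjugation, and 7 other interferon-stimulated genes.

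RNA was sequenced from 20 mammary tumours, 5 in each of 4 groups, to measure what letrozole and an antibody against PD-1 do to transcription. All tumours grew from SSM3 cells, an oestrogen receptor-positive mouse mammary tumour line, placed in the fourth inguinal mammary gland of immunocompetent 129S6/SvEv mice (strain 129/SvEv in the sample labels) aged 2 to 4 months. Treatment started at about 150 mm3. The vehicle group had sham surgery and daily injections under the skin of 5% ethanol in saline over 25 days. The anti-PD-1 group had the same surgery and vehicle, and 250 µg of anti-PD-1 into the peritoneum on days 3, 5 and 7 after surgery. The letrozole group was ovariectomised and received letrozole, an aromatase inhibitor that blocks oestrogen synthesis, at 1 mg/kg each day for 25 days in the same vehicle. The letrozole + anti-PD-1 group received both, again after ovariectomy. No group had ovariectomy without the drug or the drug without surgery. Their effects cannot be told apart, and the word letrozole stands for the pair. A single cell line was used, and the 5 tumours of a group are biological replicates per the design text.

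Type I interferons are secreted when sensors such as RIG-I (Ddx58) and MDA5 (Ifih1) detect viral or mislocalised RNA. They bind the receptor chains Ifnar1 and Ifnar2, and the kinases Jak1 and Tyk2 then activate Stat2, which acts with Irf9 in a complex that binds the interferon-stimulated response element in the promoters of many of these genes. In tumours the same genes can be read from malignant cells and from the immune and stromal cells among them, and a bulk library does not separate these sources.

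Libraries held between 12456356 and 31301954 recovered reads on the counted transcripts. The group medians were 23290240 with vehicle, 15974679 with the antibody, 25180773 with letrozole and 26706421 with the combination. Vehicle replicate 3 stood apart from its group on principal component 1 over all tested genes (75.1, the others between −104 and −18), and anti-PD-1 replicate 1, the shallowest library, stood apart on the second (−165). Counts of called members are given with and without these 2 libraries.

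The promoters are shown because the response element is a DNA feature known from many such genes and because the gene list did not use it. The RefSeq promoter table (build GRCm38.p6, from 250 bases before to 49 bases after a start site counted as position 0) held 31 of the 41 genes. Dhx58, Zbp1, Oas2, Mx1, Mx2, Usp18, Parp9, Parp14, Rtp4 and Ifi27 were not matched. The core of the element, GAAA, any 2 bases and GAAA again, on either strand, stood in 13 of the 31 (41.9%), against 3.99% of 27025 genes and 3.44% of 32851 promoters of the same length. The gamma-activated sequence, TTCNNNGAA, stood in 7 of the 31 (22.6%), against 9.55% of genes and 8.3% of promoters. Of the 11 matched genes that rose with letrozole in the tests below, 4 held the core. A match is a description of letters and not a shown binding site.

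Among the 5 genes printed here, Ifih1, Ddx58, Trim21 and Ifitm3 are those 4, and Isg15 carries 3 overlapping copies of the core. All lie on the minus strand, the letters read 5′ to 3′ in the direction of transcription, and capitals mark the response element core. For Ifih1 the 250 bases before the start site (chr2:62646256-62646505) hold no core, and the 30 bases from positions 20 to 49 (chr2:62646206-62646235) hold 1 at position 32. The counted Ifih1 transcript starts at position 44. The Ddx58 stretch spans positions −8 to 21 (chr4:40239804-40239833) with the core on the other strand, that of Trim21 positions 6 to 35 (chr7:102565447-102565476), and that of Ifitm3 positions 1 to 30 (chr7:141010714-141010743). Trim21 and Ifitm3 each hold 2 cores. The counted transcripts start at position −3 for Ddx58, −4 for Trim21 and −26 for Ifitm3, so these cores lie after the counted start. For Isg15 the 250 bases before the start site are shown (chr4:156200819-156201068).
Ifih1 upstream: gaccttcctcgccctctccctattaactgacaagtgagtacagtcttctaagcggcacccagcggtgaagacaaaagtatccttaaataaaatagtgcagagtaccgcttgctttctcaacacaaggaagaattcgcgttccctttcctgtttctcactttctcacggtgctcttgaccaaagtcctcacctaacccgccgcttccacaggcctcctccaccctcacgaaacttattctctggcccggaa
Ifih1 core: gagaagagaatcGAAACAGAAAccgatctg
Ddx58 core: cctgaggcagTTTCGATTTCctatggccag
Trim21 core: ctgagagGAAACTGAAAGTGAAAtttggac
Ifitm3 core: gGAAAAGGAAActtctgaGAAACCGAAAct
Isg15 upstream: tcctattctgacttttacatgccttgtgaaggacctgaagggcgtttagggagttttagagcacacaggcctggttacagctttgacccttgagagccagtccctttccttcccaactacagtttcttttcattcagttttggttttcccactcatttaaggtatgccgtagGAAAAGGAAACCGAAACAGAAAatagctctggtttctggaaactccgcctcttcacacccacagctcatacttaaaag

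Levels of the 41 genes were compared as the mean normalised count of 20 tumours per kilobase of the counted transcript. Ifitm3 and Ifitm2, membrane proteins that block virus entry, were highest at 2860 and 2620 per kilobase. Next came Ifi27 (725), Irf3 (706), Bst2 (692) and Dtx3l (673). The lowest were Cmpk2 (6.01), Oas3 (6.25), Rsad2 (6.77) and Ifit1 (6.92), all classical antiviral genes. Within their roles, Adar was the highest sensor gene at 493 per kilobase, Irf3 the higher transcription factor, Ifitm3 the highest effector, Dtx3l the highest conjugation gene and Ifi27 the highest of the others. The level of Ifitm2 is uncertain, since 48.5% of the 50-base words of its transcript also occur in other genes, and so are those of Oas1a (57.6%, mainly Oas1g and Oas1b) and Ifit3 (51.2%, Ifit3b). Smaller shares were found for Herc6 (23.8%), Rtp4 (13.6%), Sp100 (10.2%) and Ifitm3 (10%). Some counted transcripts are not annotated as protein-coding. Those of Irf7 and Zbp1 are annotated as retained introns, that of Rsad2 as nonsense-mediated decay and that of Mx2 as a polymorphic pseudogene. Whether reads were counted by strand is not stated in the labels, and Adar shares 23.2% of its exon bases with Chrnb2, Ifi35 17.4% with Gm11626, and Parp9 10.3% with Dtx3l, each on the other strand.

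Letrozole was followed by higher levels of 13 of the 41 genes when its effect was averaged over tumours with and without the antibody, and no member fell. The 13 were Ifih1, Ddx58, Zbp1, Oasl2, Adar, Ifitm3, Trim21, Trim25, Dtx3l, Parp14, Ifi35, Xaf1 and Lgals3bp. They make up 31.7% of the members. Over all 19844 genes 7% passed the same test in either direction, while 3.29% rose and 3.71% fell. Members were chosen with earlier results of these data known, so this excess is a description and not independent support. Of 39 tested interferon-stimulated genes outside the list, 2 rose and 2 fell. On average 38 of the 41 members were higher, against 54.1% of all genes, and the median log2 difference was 0.42 against 0.03. Without the 2 libraries that stand apart the count was 14, and 12.4% of all genes were called. Tests are from limma on log2(value + 1) over all 20 libraries, with Benjamini-Hochberg adjustment over all genes and a threshold of 0.05, and a gene past it is said to be called. All 12 listed macrophage markers were higher on average in the same contrast as well (median log2 difference 0.73, 1 called), and their part in the result was not tested. In bulk tumours, more cells of a type and more RNA per cell cannot be told apart. Unless a log2 difference is named, values of single genes below are normalised counts, listed for replicates 1 to 5 of a group.

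**Figure D1:**
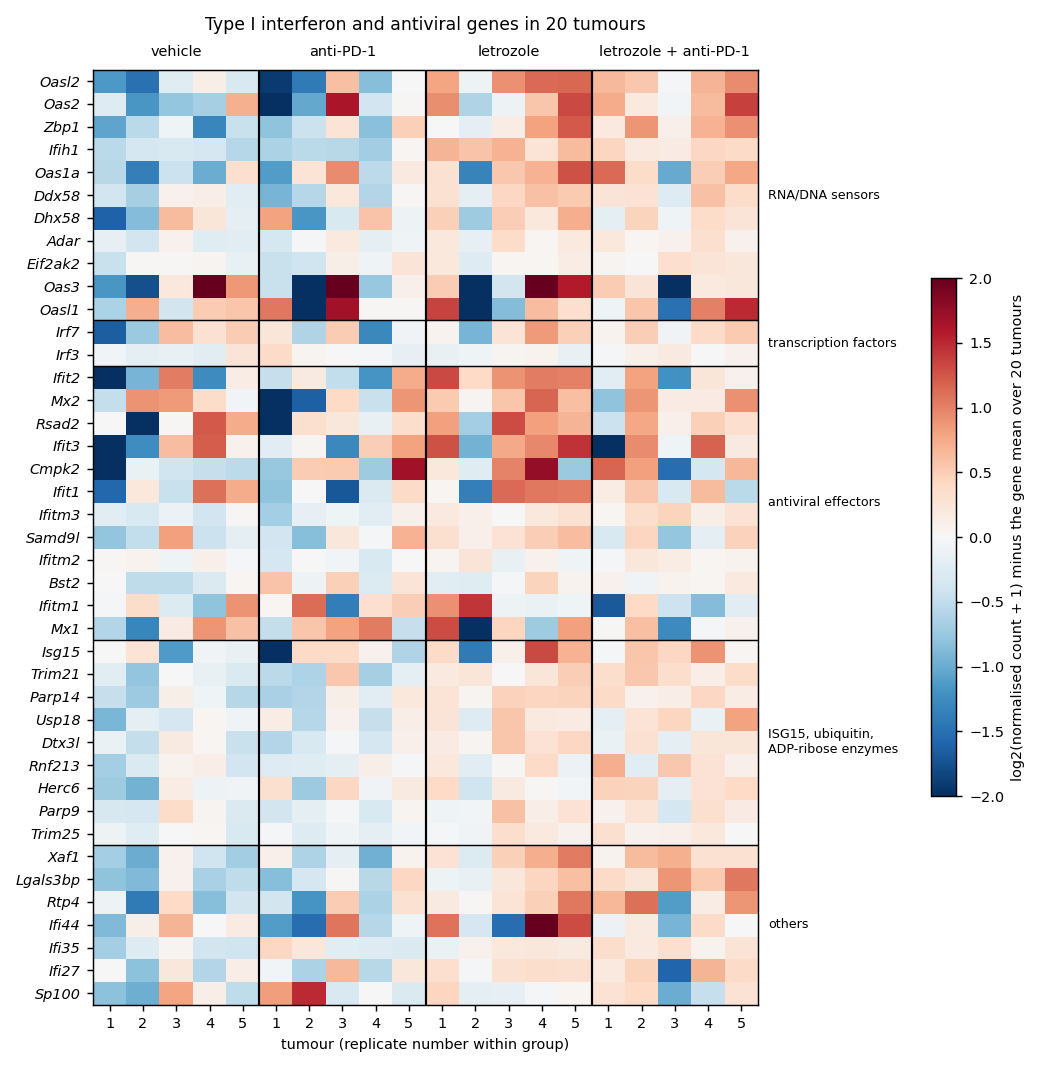
Each row is 1 of the 41 genes, grouped by role, and each column 1 of the 20 tumours. Colour gives log2(normalised count + 1) minus the gene's mean over all tumours, with the scale ending at −2 and 2. The letrozole and letrozole + anti-PD-1 columns are redder on average, and tumours within a group differ, as for letrozole replicate 2, whose mean over the members was 7.58 against 8.22 to 8.51 in the other letrozole tumours.

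**Figure D2:**
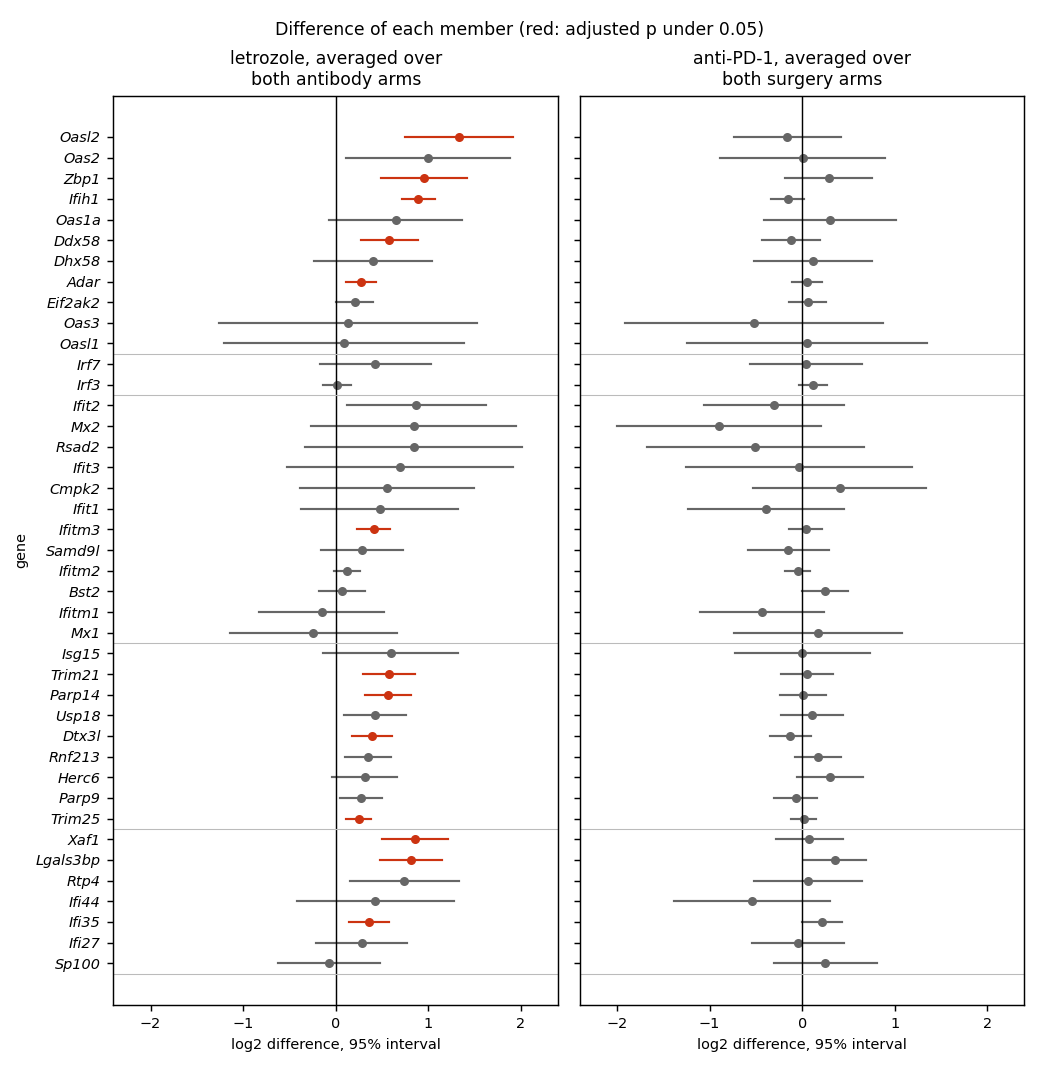
Points are log2 differences of the 41 genes and lines their 95% intervals, for letrozole averaged over both antibody arms (left) and anti-PD-1 averaged over both surgery arms (right). Red marks an adjusted p under 0.05. On the left 38 of 41 points lie above 0 and 13 are red, and on the right 24 of 41 lie above 0 and none is red.

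Among the 11 sensors and regulators 5 rose with letrozole averaged over both arms (45.5%, where 3.29% of all genes rose). The group median log2 difference was 0.58. Ifih1 encodes MDA5, a cytosolic sensor of long double-stranded RNA. Its normalised counts were 1157, 1318, 1357, 1325 and 1128 in the vehicle tumours and 1082, 1150.4, 1142, 1038.5 and 1721 with anti-PD-1 alone. With letrozole they were 2688, 2488, 2709, 2029 and 2608, and with letrozole + anti-PD-1 2263, 1913, 1886, 2226 and 2195. All 10 letrozole-treated tumours lay above all 10 others, a separation found for no other member and for 0.197% of all genes in that direction. Ifih1 rose 1.86-fold when averaged over both arms (log2 difference 0.89, SE 0.09, adjusted p = 2.01e-06).

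Ddx58 encodes RIG-I, the sensor of short and uncapped RNA ends. It stood at 1179, 967, 1631, 1697.5 and 1320.2 in vehicle tumours and 807, 1042, 1786.5, 1028.5 and 1566 with the antibody. Letrozole tumours had 1908, 1360.5, 2058, 2311 and 2206, and combination tumours 1836, 1885, 1289, 2319.9 and 1989. The ranges overlapped, and 8 of the 10 letrozole-treated tumours lay above all others. Ddx58 rose 1.49-fold (log2 difference 0.58, SE 0.15, adjusted p = 0.0222). Oasl2, an oligoadenylate synthetase-like protein, had the largest difference of the 13, a rise of 2.52-fold (log2 difference 1.33, SE 0.28, adjusted p = 0.00645). Its counts were 145, 113.5, 271.5, 346 and 260.1 in vehicle tumours and 84.7, 119, 486, 178 and 318 with the antibody. They reached 552, 299.5, 603, 704 and 709.5 with letrozole and 505, 467, 314, 512 and 619 with both. The anti-PD-1 tumours spread widely, and the highest of them exceeded 3 of the 10 letrozole-treated tumours.

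Zbp1 is a sensor of Z-form nucleic acid that can start necroptosis. Vehicle tumours had 75.1, 108, 148, 63 and 115, and anti-PD-1 tumours 89, 116, 189, 87.7 and 218. Letrozole tumours had 156, 139, 173, 276.5 and 368.5, and combination tumours 181, 289.6, 168, 254 and 296. Combination tumours lay above all vehicle tumours, while vehicle replicate 3 and anti-PD-1 replicates 3 and 5 overlapped with the letrozole group. Zbp1 rose 1.94-fold (log2 difference 0.95, SE 0.22, adjusted p = 0.0135), and its counted transcript is annotated as a retained intron. Adar edits adenosine to inosine in double-stranded RNA and thereby limits MDA5 activation. It was at 2562.5, 2227, 3049, 2418 and 2448 in vehicle tumours and 2243, 2794, 3271, 2525 and 2689 with the antibody. It was at 3319, 2548, 3693, 2930.4 and 3265 with letrozole and 3308, 2925, 3046, 3561 and 3031.5 with both. The rise was small (log2 difference 0.27, SE 0.08, adjusted p = 0.0408), with 4 of the 10 letrozole-treated tumours above all others, and it did not pass in 19 of 32 alternative settings, where the adjusted p ran from 0.0505 to 0.125.

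The other 6 sensors did not pass the test. Oas2 and Oas1a, synthetases of the 2′,5′-oligoadenylates that activate RNase L, had averaged log2 differences of 1.00 (SE 0.43, adjusted p = 0.166) and 0.65 (SE 0.34, adjusted p = 0.269). Dhx58, which encodes the regulator LGP2, had a log2 difference of 0.40 (SE 0.31, adjusted p = 0.459), and Eif2ak2, which encodes the kinase PKR, a log2 difference of 0.21 (SE 0.10, adjusted p = 0.203). Oas3 (log2 difference 0.14, SE 0.67, adjusted p = 0.929) and Oasl1 (log2 difference 0.09, SE 0.62, adjusted p = 0.952) were near 0 with wide errors. All 11 were higher on average.

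**Figure D3:**
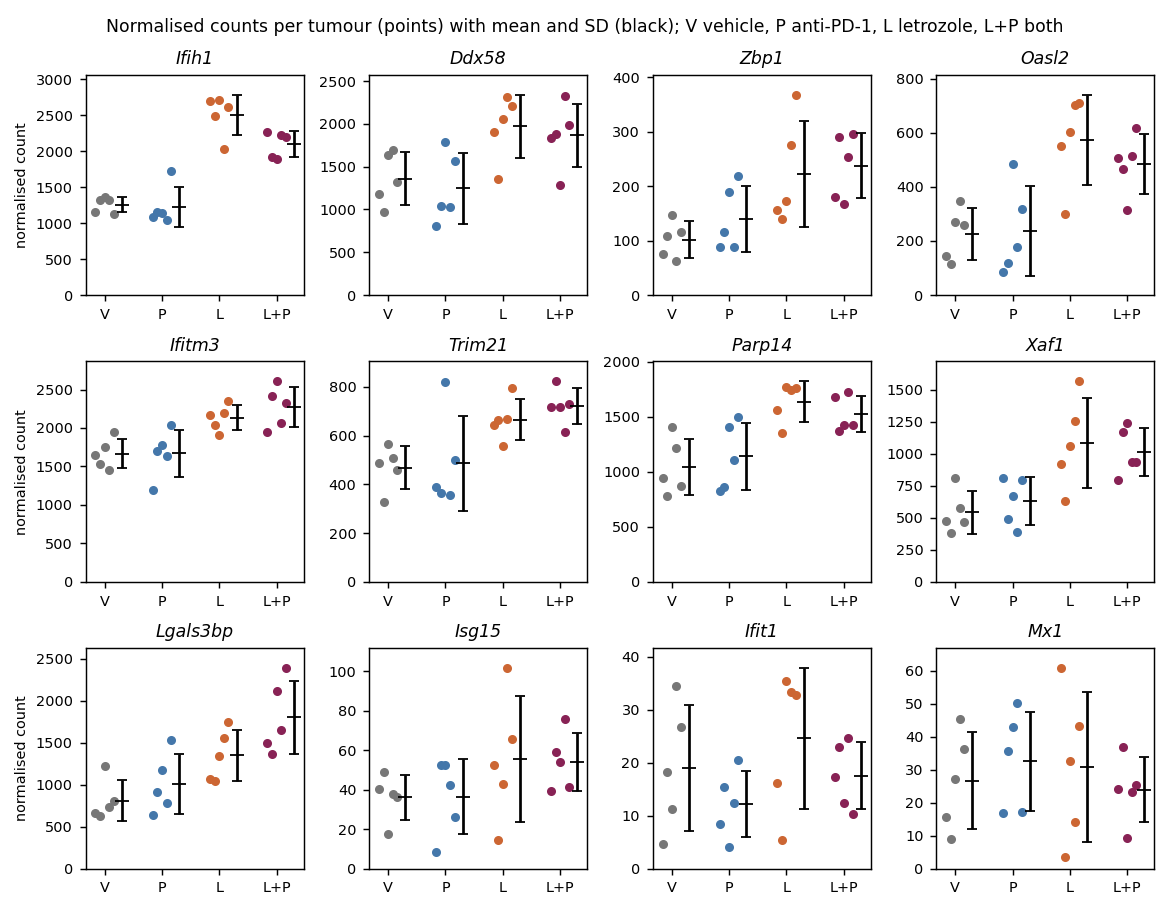
Normalised counts of 12 members, 1 point per tumour, with mean and SD in black, for vehicle (V), anti-PD-1 (P), letrozole (L) and letrozole + anti-PD-1 (L+P). Vertical axes start at 0 and differ between panels. Only in the Ifih1 panel do all 10 letrozole-treated tumours lie above the other 10, and Isg15, Ifit1 and Mx1 are shown as members that did not pass.

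The 2 transcription factors did not pass. Irf3 is the constitutive factor that turns on interferon genes after sensing. It was at 1159, 1056, 1088, 1041 and 1437 in vehicle tumours and 1571.5, 1243, 1207, 1179 and 1077 with the antibody. With letrozole it was at 1084, 1135, 1245, 1258 and 1081, and with both at 1173, 1294, 1357, 1201 and 1272. The 4 groups overlapped throughout, and the averaged effect was a log2 difference of 0.01 (95% interval −0.14 to 0.17, adjusted p = 0.936). Irf7, the interferon-induced factor that amplifies the response, had means of 202 ± 106 in vehicle and 236 ± 93.3 in letrozole tumours (SD, n = 5), and a log2 difference of 0.43 (95% interval −0.18 to 1.03, adjusted p = 0.396) when averaged over both arms.

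Of the 12 antiviral effectors only Ifitm3 rose, and the group median log2 difference was 0.44. That is 8.33% of the group, a share near the 7% of all genes called in either direction (3.29% rose). Ifitm3 was at 1644, 1534, 1755, 1458 and 1944.5 in vehicle tumours and 1190.3, 1695, 1785, 1642 and 2033 with the antibody. With letrozole it was at 2174.5, 2037, 1915, 2201 and 2347, and with both at 1949, 2417, 2605, 2071 and 2323. The highest anti-PD-1 tumour was above the lowest letrozole-treated ones, and 8 of 10 letrozole-treated tumours lay above all others. Ifitm3 rose 1.33-fold (log2 difference 0.41, SE 0.09, adjusted p = 0.00651). Its neighbour Ifitm2 had a log2 difference of 0.12 (95% interval −0.02 to 0.26, adjusted p = 0.282), and Ifitm1 a log2 difference of −0.15 (95% interval −0.83 to 0.52, adjusted p = 0.825).

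The classical effectors were low and variable. Ifit2, which binds viral RNA, was at 7.3, 18.2, 73, 14.3 and 39.4 in vehicle and 89.9, 46.9, 67.1, 73.3 and 72.5 in letrozole tumours. It was at 25.4, 40.3, 24.9, 15 and 60.2 with the antibody and at 30.1, 62.5, 14.7, 42.2 and 37.7 with both. Letrozole alone was the highest group on average, but vehicle replicate 3 lay within it, and the averaged effect was a log2 difference of 0.87 (SE 0.36, adjusted p = 0.154). Ifit1 had a log2 difference of 0.47 (SE 0.41, adjusted p = 0.514) and Ifit3 a log2 difference of 0.69 (SE 0.59, adjusted p = 0.509). Rsad2, which encodes viperin, had a log2 difference of 0.84 (SE 0.56, adjusted p = 0.388), its neighbour Cmpk2 had a log2 difference of 0.55 (SE 0.45, adjusted p = 0.49), and Samd9l had a log2 difference of 0.29 (SE 0.21, adjusted p = 0.441). The GTPase gene Mx1 was lower on average, with a log2 difference of −0.24 (SE 0.43, adjusted p = 0.788), and Mx2 higher, with a log2 difference of 0.84 (SE 0.53, adjusted p = 0.359). Bst2, tetherin, had a log2 difference of 0.07 (SE 0.12, adjusted p = 0.778).

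In the ISG15, ubiquitin and ADP-ribose group 4 of 9 rose (44.4%, where 3.29% of all genes rose). All 9 were higher on average, and the median log2 difference was 0.39. Trim21 is a cytosolic antibody receptor and ubiquitin ligase. It stood at 488, 327, 563.5, 507 and 459.5 in vehicle tumours and 388, 366, 819, 357 and 499 with the antibody. Letrozole tumours were at 644, 665, 558.5, 667 and 795, and combination tumours at 719, 822, 715.5, 615 and 729. Combination tumours were above all vehicle tumours, and anti-PD-1 replicate 3 reached the level of the highest letrozole-treated tumour. Trim21 rose 1.49-fold (log2 difference 0.58, SE 0.13, adjusted p = 0.0124).

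Trim25, the ubiquitin ligase that acts on RIG-I, was at 3442, 3094, 3671, 3776 and 2972 in vehicle tumours and 3619.6, 3074.5, 3482, 3213 and 3527 with the antibody. It was at 3616, 3499, 4674, 4204.5 and 3923 with letrozole and at 4586, 3886, 3955.5, 4242.5 and 3679 with both. Combination tumours lay above all anti-PD-1 tumours. Trim25 rose 1.19-fold (log2 difference 0.25, SE 0.07, adjusted p = 0.0276), and lost the call in 8 of 32 alternative settings (adjusted p 0.052 to 0.115).

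Dtx3l and Parp9 are partners, a ubiquitin ligase and an ADP-ribosyltransferase, that are transcribed from a shared region on opposite strands. Dtx3l was at 3189.8, 2517, 3962, 3594 and 2556 in vehicle tumours and 2334, 2845, 3443, 2773.5 and 3770 with the antibody. Letrozole tumours were at 3901, 3643, 5151, 4284.5 and 4635, and combination tumours at 3202, 4337, 3100, 4114 and 4121. It rose 1.31-fold (log2 difference 0.39, SE 0.11, adjusted p = 0.029), with 6 of the 10 letrozole-treated tumours above all others, and lost the call in 9 of 32 settings (adjusted p 0.0536 to 0.0585). Parp9 did not pass, with a log2 difference of 0.28 (SE 0.11, adjusted p = 0.139). Parp14, another ADP-ribosyltransferase, was at 943, 783, 1401, 1213 and 873 in vehicle tumours and 828, 864, 1407, 1109 and 1495 with the antibody. It was at 1563, 1349, 1773, 1745 and 1755.5 with letrozole and 1678.5, 1367, 1423, 1720.3 and 1426 with both. The letrozole-treated tumours formed a narrow band from 1349 to 1773 that 1 vehicle and 2 anti-PD-1 tumours entered. Parp14 rose 1.48-fold (log2 difference 0.56, SE 0.12, adjusted p = 0.00724).

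Isg15, the ubiquitin-like protein that names the group, did not pass. It was at 40.3, 48.8, 17.8, 38.1 and 36.3 in vehicle tumours and 8.5, 52.7, 52.5, 42.6 and 26 with the antibody. It was at 52.6, 14.4, 43.1, 102 and 65.6 with letrozole and 39.4, 59.2, 54.1, 75.7 and 41.5 with both, and the groups overlapped. The averaged effect was a log2 difference of 0.59 (SE 0.35, adjusted p = 0.325). Its deconjugating protease Usp18 had a log2 difference of 0.42 (SE 0.16, adjusted p = 0.119), and its ligase Herc6 a log2 difference of 0.31 (SE 0.17, adjusted p = 0.289). Rnf213, a giant ubiquitin ligase, had a log2 difference of 0.35 (SE 0.12, adjusted p = 0.0855).

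Of the 7 remaining genes 3 rose (42.9%, where 3.29% of all genes rose), with a group median log2 difference of 0.43. Lgals3bp encodes a secreted glycoprotein that binds galectins. It was at 659, 623, 1228, 739 and 806 in vehicle tumours and 642, 908.5, 1178, 783 and 1535 with the antibody. It was at 1069, 1043, 1347, 1556 and 1743 with letrozole and 1501, 1362, 2120.1, 1652 and 2387 with both. Combination tumours lay above all vehicle tumours, while vehicle replicate 3 and anti-PD-1 replicates 3 and 5 lay among the letrozole tumours. Lgals3bp rose 1.76-fold (log2 difference 0.81, SE 0.16, adjusted p = 0.00444).

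Xaf1, which binds the inhibitor of apoptosis XIAP, was at 473.5, 381, 808, 577 and 467 in vehicle tumours and 809, 493, 667, 387 and 794 with the antibody. It was at 921, 629.7, 1059.5, 1254 and 1563 with letrozole and 794, 1172, 1238, 934 and 933 with both. In all, 8 of the 10 letrozole-treated tumours were above all others, and Xaf1 rose 1.81-fold (log2 difference 0.86, SE 0.17, adjusted p = 0.00478). Ifi35 was at 344, 462, 578, 432 and 421 in vehicle tumours and 741, 646.5, 472, 462 and 455 with the antibody. It was at 505, 586, 645, 649 and 627 with letrozole and 707, 632, 692, 584 and 674 with both. The highest Ifi35 value of all was that of anti-PD-1 replicate 1, a library that stands apart. Its rise was small (log2 difference 0.36, SE 0.10, adjusted p = 0.0433) and was lost in 19 of 32 settings (adjusted p 0.0524 to 0.0862).

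Ifi27, a small hydrophobic membrane protein, was at 664, 376, 783, 441 and 731 in vehicle tumours and 642, 431, 1045, 455 and 777 with the antibody. It was at 844.5, 648, 826, 852 and 829 with letrozole and 764, 905, 220.4, 1067 and 872 with both. Letrozole + anti-PD-1 replicate 3 was the lowest of all 20 tumours, and the averaged effect was a log2 difference of 0.28 (SE 0.24, adjusted p = 0.509). Rtp4 had a log2 difference of 0.74 (SE 0.28, adjusted p = 0.118), and Ifi44 a log2 difference of 0.43 (SE 0.41, adjusted p = 0.565). For Sp100, a nuclear body protein, the most abundant transcript had a log2 difference of −0.07 (SE 0.27, adjusted p = 0.901). Its 12 other tested transcripts had log2 differences of 0.49 to 1.62, none past the threshold, and the sum over all its transcripts had one of 0.66 (SE 0.30, adjusted p = 0.199). When every transcript was tested on its own, 47 of 189 member transcripts were higher and 0 lower, against 6.81% of 89110 transcripts in either direction. Transcripts of a gene share reads and are not independent.

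**Figure D4:**
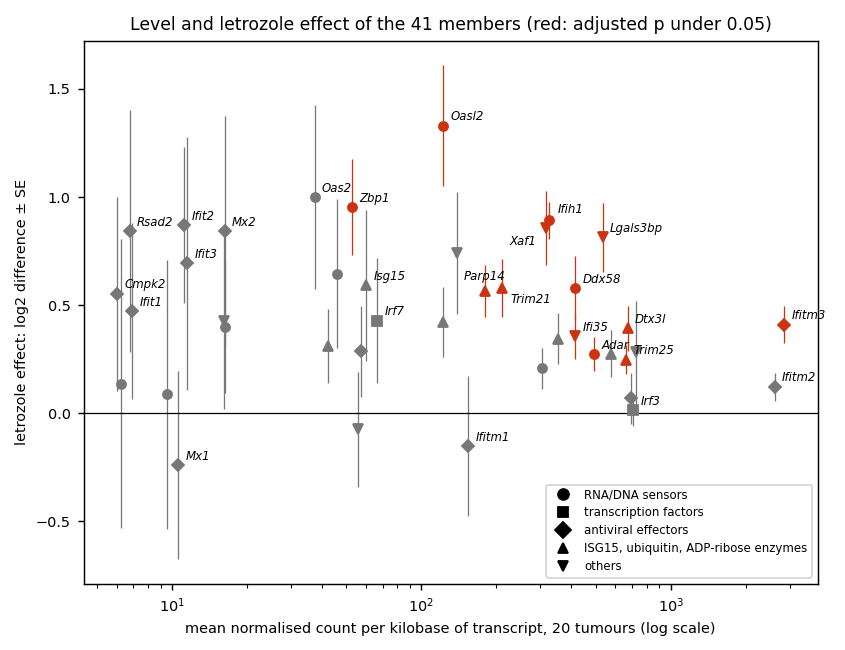
Each point is 1 of the 41 genes. The horizontal axis is the mean normalised count per kilobase over 20 tumours on a log scale, and the vertical axis the log2 difference with letrozole, averaged over both antibody arms, with its SE. Red points have an adjusted p under 0.05. Errors are wider among the 20 genes with the lower levels (median SE 0.38) than among the 21 others (0.12).

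The level of a gene went with the width of its error. The 20 members with the lower levels, from 6.01 to 122 per kilobase, had SEs of 0.17 to 0.67 with a median of 0.38. Their median log2 difference was 0.51, 18 were higher on average and 2 were called. The 21 members with the higher levels had SEs of 0.07 to 0.32 with a median of 0.12. Their median log2 difference was 0.36, 20 were higher on average and 11 were called. A difference of the size seen in Trim25 was not detectable at the errors of the members with lower levels.

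Letrozole against vehicle, without the antibody, was passed by Ifih1 alone, against 0.957% of all genes in either direction. Ifih1 went from 1257 ± 106 to 2504 ± 279.8 (SD, n = 5 each), 1.99-fold higher (log2 difference 0.99, SE 0.12, adjusted p = 0.000182), and it was the sole member whose groups did not overlap, against 1.71% of genes in that direction and 1.96% in the other. Next by p came Xaf1, with a log2 difference of 0.99 (SE 0.24, adjusted p = 0.0552), and Parp14, with a log2 difference of 0.68 (SE 0.17, adjusted p = 0.062). On average 39 of the 41 members were higher with letrozole, against 53.4% of all genes, and the median log2 difference was 0.46. An unadjusted p under 0.05 was found for 15 members, all higher, which is 15 of 41 against 13.8% of all genes. The count of called members was 8 without vehicle replicate 3 (4.04% of all genes called), 3 without anti-PD-1 replicate 1 (1.23%), 2 without anti-PD-1 replicate 4 (0.927%) or letrozole replicate 2 (0.751%), and 11 without both libraries that stand apart (5.72%).

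Letrozole was also compared between tumours that all received the antibody. In letrozole + anti-PD-1 against anti-PD-1 only Ifih1 passed, with a log2 difference of 0.79 (SE 0.12, adjusted p = 0.00138), against 1.07% of all genes in either direction, 0.479% higher and 0.595% lower. The next members by p were Lgals3bp, with a log2 difference of 0.87 (SE 0.23, adjusted p = 0.0697), and Ifitm3, with a log2 difference of 0.46 (SE 0.12, adjusted p = 0.075). Ifih1 and Trim25 were the members whose groups did not overlap, against 1.37% of genes in that direction and 1.47% in the other. Of the 41 members 34 were higher on average, against 53.9% of genes, with a median log2 difference of 0.35, and 14 had an unadjusted p under 0.05, against 13.4% of genes. The count was 3 without anti-PD-1 replicate 3 (1.29% of all genes called) or 5 (0.968%) and 2 without vehicle replicate 3 (1.33%), and it was 1 without both libraries that stand apart (1.18%).

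The combination against vehicle was passed by 2 members, both higher, against 1.18% of all genes in either direction, 0.459% higher and 0.721% lower. Lgals3bp went from 811 ± 244 to 1804 ± 433 (SD, n = 5 each), 2.24-fold higher (log2 difference 1.17, SE 0.23, adjusted p = 0.0113), and Ifih1 was 1.67-fold higher (log2 difference 0.74, SE 0.12, adjusted p = 0.00256). Zbp1 followed without passing, with a log2 difference of 1.24 (SE 0.32, adjusted p = 0.0607). Ifih1, Zbp1, Ifitm3, Trim21, Ifi35 and Lgals3bp had groups that did not overlap, against 1.32% of genes in that direction and 1.59% in the other. On average 36 of 41 members were higher, against 54% of genes, with a median log2 difference of 0.46. Called members numbered 6 without vehicle replicate 3 (3.5% of all genes called), 4 without anti-PD-1 replicate 1 (1.46%) and 9 without both libraries that stand apart (4.75%). This comparison, letrozole against vehicle and the averaged effect share control tumours, so they are not independent of each other. The combination against anti-PD-1 uses the same combination tumours as this comparison and is part of the averaged effect, so it is not independent of these either.

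The antibody was followed by no called change in any of these genes. In anti-PD-1 against vehicle 0 of 41 members passed, as did 0% of all genes, and 1 member had an unadjusted p under 0.05, against 2.72% of genes. That member was Bst2, at 533, 376, 377, 439 and 550.2 in vehicle and 801, 501, 751, 442 and 643 in anti-PD-1 tumours. With letrozole it was at 458, 455, 528, 734 and 565 and with both at 568, 513, 562, 550.1 and 612. The lowest anti-PD-1 tumours fell within the vehicle range, with a log2 difference of 0.45 (95% interval 0.10 to 0.80, adjusted p = 1). Ifi35 followed with a log2 difference of 0.30 (95% interval −0.01 to 0.61, adjusted p = 1). Mx2 came next, at 22, 59, 57.1, 40.4 and 30 in vehicle and 0, 9.3, 41.4, 22.5 and 58.1 in anti-PD-1 tumours, with a log2 difference of −1.48 (95% interval −3.04 to 0.08, adjusted p = 1). It was at 45.3, 32.5, 46, 70.8 and 47.5 with letrozole and 17.4, 58.4, 34.8, 34.9 and 59.4 with both, and anti-PD-1 replicate 1, the shallowest library, was the one at 0. The members' median log2 difference was 0.09, and 23 of 41 were higher on average, against 50.1% of genes. No member's groups were separate, against 0.207% of genes in each direction.

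Adding the antibody to letrozole likewise gave 0 called members and 0% of all genes. The members' median log2 difference was −0.05, and 19 of 41 were higher on average, against 47.8% of genes. The smallest p belonged to Ifitm1, at 186.5, 267, 92, 89.9 and 93.2 with letrozole and 30.1, 130, 74.3, 53.8 and 84.9 with both. It was at 96.2, 128, 81.4, 55.9 and 185 in vehicle and 102, 215.5, 37.3, 125 and 140.1 in anti-PD-1 tumours. The letrozole and combination ranges overlapped, with a log2 difference of −0.96 (95% interval −1.91 to −0.01, adjusted p = 1). Ifih1 had a log2 difference of −0.25 (95% interval −0.51 to 0.00, adjusted p = 1) and Ifit2 a log2 difference of −0.99 (95% interval −2.05 to 0.07, adjusted p = 1), so both were lower on average with the antibody added. Those of Ifitm1 and Ifih1 were the 2 unadjusted p-values under 0.05, against 3.16% of genes. No member's groups were separate, against 0.257% of genes higher and 0.282% lower.

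Averaged over both surgery arms, the antibody effect again had 0 called members, 0% of genes called, and a median log2 difference of 0.04. Lgals3bp had the smallest p, with a log2 difference of 0.35 (95% interval 0.02 to 0.69, adjusted p = 0.998). Bst2 followed with 0.25 (95% interval 0.00 to 0.50, adjusted p = 0.998) and Ifi35 with 0.22 (95% interval 0.00 to 0.43, adjusted p = 0.998) on the same scale. The interaction, which asks whether the letrozole effect differed with the antibody, was passed by 0 members and 0% of genes, and by 0 members at an unadjusted p under 0.05. Its median over the members was −0.11, and 16 of 41 were above 0, against 48.3% of genes. Ifit2 had the smallest p of the interaction, with a log2 difference of −1.38 (95% interval −2.88 to 0.13, adjusted p = 1). Ifitm2 was at 1731, 1796, 1616, 1838 and 1675 in vehicle, 1332, 1718, 1644, 1379 and 1712 in anti-PD-1, 1770.2, 2046, 1539.5, 1802 and 1606 in letrozole and 1674, 1994, 1883, 1758 and 1795 in combination tumours, and every pair of groups overlapped. It followed with 0.22 (95% interval −0.06 to 0.50, adjusted p = 1) and Bst2 with −0.39 (95% interval −0.89 to 0.11, adjusted p = 1) on the same scale. For Ifih1 the interaction was a log2 difference of −0.20 (95% interval −0.55 to 0.16, adjusted p = 1). The edgeR and DESeq2 tests on recovered reads also called 0 members in anti-PD-1 against vehicle, the combination against letrozole, the averaged antibody effect and the interaction.

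Many of the 41 genes varied together between tumours of a group. The mean of the members on the log2 scale was 7.69 ± 0.36 in vehicle, 7.75 ± 0.37 in anti-PD-1, 8.23 ± 0.38 in letrozole and 8.12 ± 0.28 in combination tumours (SD, n = 5 each). The ranges were 7.23 to 8.01, 7.33 to 8.15, 7.58 to 8.51 and 7.68 to 8.35, so the groups overlapped on this mean. After subtraction of group means, the median Pearson r over 820 pairs of members in 20 tumours was 0.28, and 79.4% of pairs were above 0. These values are descriptions, since all members of a tumour share a library and its depth.

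Ddx58 and Oasl2 followed the others most closely, with r of 0.895 and 0.887 to the mean of the other members and r = 0.939 to each other. Of the 41 members 25 had an r of at least 0.5 to the mean of the others. No share for other sets of genes was set beside this count. Dtx3l and Parp9, the overlapping partners, had r = 0.872, and Rtp4 and Ifi27 had r = 0.858. Ifih1, whose letrozole-treated tumours lay apart from the rest, followed the other members little within groups (r = 0.277). Ifitm1 (−0.377), Irf3 (−0.236), Ifi35 (−0.151) and Ifitm2 (−0.051) ran slightly against the mean. Outside the list, the 10 tested genes with the highest r to the members' mean, again within groups and over 20 tumours, were Syne3 (0.863), Bcas1os1, Tbl1xr1, Uba7, 5830432E09Rik, 4933431K23Rik, Myo3a, Tmem192, Iqgap1 and Trac (0.806). Uba7 encodes the activating enzyme of ISG15, and Trac, with a median normalised count of 8.2, a T cell receptor constant region.

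The interferons themselves were barely read. Of 11 listed ligand genes 6 were in the table and none reached the minimum for testing. Ifnb1 was above 0 in 1 library, at 3.8, Ifnk in 6 libraries, up to 8.3, and Ifng in 2, up to 8.2. At this depth their differences were not detectable.

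Among 15 tested receptor and signalling genes 5 rose with letrozole averaged over both arms and 0 fell, with a median log2 difference of 0.29, where 3.29% of all genes rose. Among them were Ifnar2, a chain of the type I receptor (log2 difference 0.28, SE 0.08, adjusted p = 0.0497), Ifngr2 of the interferon gamma receptor (log2 difference 0.36, SE 0.10, adjusted p = 0.03), Il10rb of the lambda and interleukin-10 receptors (log2 difference 0.34, SE 0.08, adjusted p = 0.00983) and Irf9 (log2 difference 0.29, SE 0.07, adjusted p = 0.0195). Stat2 did not pass, with a log2 difference of −0.12 (SE 0.14, adjusted p = 0.671). Of 13 tested sensing adaptors 1 was called, a share near the 7% of all genes. It was Tlr3, the endosomal double-stranded RNA receptor, which rose (log2 difference 0.43, SE 0.12, adjusted p = 0.0387), the group median log2 difference was 0.18, and Mavs (log2 difference 0.18, SE 0.10, adjusted p = 0.325) and Tmem173, which encodes STING (log2 difference 0.05, SE 0.33, adjusted p = 0.953), did not pass.

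A further 39 tested interferon-stimulated genes outside the list had a median log2 difference of 0.47, and 33 were higher on average, against 54.1% of all genes. The 2 that rose and the 2 that fell make up a share near that of all genes (3.29% rose and 3.71% fell). Of them Tdrd7 (log2 difference 0.43, SE 0.13, adjusted p = 0.0485) and Pml (log2 difference 0.33, SE 0.09, adjusted p = 0.0274) rose, while Isg20, an RNA exonuclease (log2 difference −0.61, SE 0.13, adjusted p = 0.0059), and Pnpt1, a mitochondrial RNA-degrading enzyme (log2 difference −0.27, SE 0.07, adjusted p = 0.0279), fell. Isg20 was at 771, 720.5, 414, 759 and 669 in vehicle tumours and 430, 583, 502.5, 519.9 and 513 with the antibody. It was at 499, 386, 464, 420.5 and 331 with letrozole and 276, 449, 264.5, 392 and 364 with both, with only vehicle replicate 3 of the vehicle tumours inside the letrozole range.

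Of the macrophage and myeloid markers named above, Cd14 was the one called. The summed normalised counts of the 12 ran from 2287 to 19420 in vehicle tumours, from 3096 to 10490 with the antibody, from 7491 to 14310 with letrozole and from 6408 to 14110 with both. Vehicle replicate 3, which stands apart, had the 19420, and the other vehicle tumours reached at most 6749, below every tumour given letrozole alone. The lowest combination tumour, at 6408, was below 6749, and the highest anti-PD-1 tumour, at 10490, lay within the letrozole range. Of 12 T and NK cell markers 7 were tested and 0 passed, and 6 of those 7 were higher on average, with a median log2 difference of 1.28. The sums of all 12 ran from 63.2 to 285 in vehicle, 133 to 324 in anti-PD-1, 106 to 384 in letrozole and 99.8 to 447 in combination tumours. The median sums were 123.7, 142.6, 194.5 and 120.8 in that order. Cd3d had a median normalised count of 75.9, while the medians of the other listed T and NK markers were at most 9.7. Sums of 7 plasmacytoid dendritic cell markers, with the member Bst2 left out, ran from 2210 to 3135, 1741 to 3402, 2524 to 3074 and 1682 to 2795 in the same order. Tcf4, which other cells also express, ran from 1646 to 3320 and made up most of these sums, while Siglech had a median normalised count of 20.7. Of the 5 of these markers that were tested 4 were higher on average, with a median log2 difference of 0.50, and 0 were called. No listed marker was at 0 in all 20 tumours, and Nkg7, Cox6a2, Ms4a1, Ly6g and Retnlg were among those that stayed below 10 in all. The 8 luminal epithelial markers, a check of the labelled mammary tumour, were high throughout, with sums from 216100 to 307200, and Epcam rose with letrozole. Averaged over both arms, 5 of 5 tested conventional dendritic cell markers (median log2 difference 0.77), 2 of 2 B and plasma cell markers (0.95) and the 1 tested neutrophil marker (1.46) were higher with letrozole, and 0 of these were called. Likewise 7 of 8 fibroblast markers (median log2 difference 0.92), 6 of 6 endothelial (0.39), 4 of 5 adipocyte (0.73) and 4 of 4 tested skeletal muscle markers (1.96) were higher, again with 0 called. The part of these cells in the differences of the 41 genes was likewise not tested.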

How the data were processed

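Per the labels' protocols, Qiagen AllPrep RNA (1 µg of total RNA per library) was made into libraries with a Swift Rapid kit. STAR 2.7.10a, DESeq2 and the build GRCm39 (mm39) are named per the submitters' processing notes. Not given in the sources used here: read counter, annotation, use of strand and the authors' DESeq2 version. A single table of 127442 transcripts by 20 libraries was deposited, and its unit is a signal, the reads of a transcript after division by the library's size factor. Undoing the division gave whole reads for 100% of values (tolerance 0.001) and size factors of 0.472 to 1.463. Between 57.9% and 69.6% of recovered counts of 1 to 20 were even. Transcripts share reads, so counts are not independent molecules.

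Names came from GENCODE vM21 (GRCm38), which matched 118889 transcripts (93.3%). Left out were the unmatched transcripts, with 1.79% to 2.76% of reads, and 49 symbols shared by several genes. Genes needed a value of 10 or more in 5 or more libraries. They were tested with limma 3.58.1 (R 4.3.3), with a trend, on log2(value + 1) in 1 model of the 4 groups (16 residual degrees of freedom). The p-values are two-sided, with Benjamini-Hochberg adjustment over all genes. Fold changes on this scale understate changes of low genes. The design had assumed a table of genes. Scripts were tested on simulated data. Alternatives were other pseudocounts, filters, scalings and transcripts, a replicate block, count tests of the recovered reads with edgeR 4.0.16 and with DESeq2 1.42.0, and leaving out libraries. Every transcript on its own and the protein-coding transcript were added after seeing the data.

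Per-tumour values are given for members past the threshold in any comparison, for the 3 smallest p-values of a comparison with fewer than 5 such members, and for the member of each role with the highest level per kilobase. The values of Isg15 and the choice of promoters shown were added after seeing the data. Members, lists and roles were chosen with earlier results of these data known.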

Additional observations from a re-analysis of the deposited data

Results flagged for a closer look

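In all, 84 sets of 5 tumours were checked, each a named member or the mean log2 level of the 41 members in a group. Of these, 2 had a tumour whose gap to the nearest other was above Dixon's critical value of 0.71 as a share of the range. Chance alone flags about 1 in 20. Ifi27 in letrozole replicate 2 was the lowest of its group at 647.8, with the nearest tumour at 825.8 and a gap of 0.87 of the range. That tumour also had the lowest mean over the 41 genes in its group (7.58). Ifih1 in anti-PD-1 replicate 5 was the highest of its group at 1721.3, with the nearest at 1150.4 and a gap of 0.84 of the range. It still lay below the lowest letrozole-treated tumour, at 1885.7.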

How the results depend on the processing

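No called member had the other sign under any alternative run. Among members that were not called, Oas3, Oasl1, Irf3, Mx1 and Sp100 (averaged log2 differences of at most 0.24 in size) had the other sign in at least 1 of 32 alternatives for the averaged letrozole effect, as did 7 to 22 members in the other comparisons. In letrozole against vehicle the 1 called member became 6 with DESeq2 on recovered reads, 5 with the replicate block, 2 at a minimum of 50, and 11 without the 2 libraries that stand apart. Leaving out 1 library at a time gave 1 to 8. In the combination against anti-PD-1 the 1 became 3 with DESeq2 and with the replicate block (Ifih1, Ifitm3 and Lgals3bp in both), and 1 to 3 with 1 library left out. In the combination against vehicle the 2 became 6 with DESeq2, 4 at a minimum of 50, 9 without the 2 libraries and 2 to 6 with 1 library left out. The replicate block gave 3 there. For these the cause was not tested. The averaged letrozole effect had 13 called members, 14 with DESeq2, 12 with edgeR and with the replicate block, 9 without a filter or with each library centred on its median, and 9 to 16 with 1 library left out (16 without vehicle replicate 3). Both antibody comparisons, the averaged antibody effect and the interaction had 0 called members in every alternative run.

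Of the 13 averaged calls, 9 held in all 32 alternatives and Adar, Ifi35, Dtx3l and Trim25 did not. The pairwise calls of Ifih1 and Lgals3bp held in all 33. Calls gained elsewhere were Xaf1 in 8 and Parp14 in 5 settings (letrozole against vehicle), Zbp1 in 6 (combination against vehicle), and Lgals3bp in 4 and Ifitm3 in 3 (combination against anti-PD-1). Tumours with the same replicate number did not deviate together over all genes: between groups their mean r was −0.09 to 0.10 for the 5 numbers, so the numbers were not taken as pairs. SEs reached 0.67 among the 20 members with the lower levels and 0.32 among the others.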
